A study of Mus musculus with 9 samples.

Results

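Genes of MHC class II antigen presentation and T cell costimulation were followed in mouse back skin given imiquimod cream, with or without oral vanillin. The set held 10 genes chosen by name: the class II chain genes H2-Aa, H2-Ab1 and H2-Eb1, the peptide-loading gene H2-DMa, the invariant chain gene Cd74, the class II transactivator gene Ciita, and the costimulation genes Cd80, Cd86, Cd40 and Cd83. Every probe whose symbol in the platform's annotation equalled one of these names, ignoring case, was taken. This gave 10 probes for 7 genes, of 26423 probes and 17742 named genes on the array. Cd74 had 3 probes, Cd40 had 2, and the others had 1 each. The annotation writes symbols without hyphens, so H2-Aa was matched through its older synonym H2Aa. No probe used here carried the symbol of H2-Ab1, H2-Eb1 or H2-DMa, and these 3 genes were not analysed here. Whether H2-Eb1 or H2-DMa has a probe under another spelling, such as one without the hyphen, was not tested. A probe annotated H2AB1 could stand for H2-Ab1 or for the histone gene whose current symbol is H2ab1, and its values are given apart from the members.

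The 9 samples were total RNA of female BALB/c mice, each on its own one-colour Cy5 array, with 3 arrays in each of 3 groups. Mock mice received Vaseline cream on the shaved back daily for 7 days. IMQ mice received cream with imiquimod (IMQ), which activates Toll-like receptor 7 and is widely used to induce psoriasis-like dermatitis, on the same schedule. Vanillin mice received imiquimod on the skin and 100 mg/kg vanillin by mouth, so there was no group with vanillin alone. The labels give no age, and they do not say whether each array came from a separate mouse, so p-values measure the spread between arrays, which may be technical. The tissue label and the series' design name skin, whereas the extraction text names muscle.

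Keratinocyte markers were at a median percentile of 99.6 of all probes by mean intensity, and skeletal muscle markers at 98.8, so markers of both tissues were bright on these arrays. In bulk RNA of this kind, fewer cells of a type and less RNA per cell cannot be told apart. Array medians lay between 628.944 and 631.111 intensity units, since the deposited values had already been equalised between arrays. Values below are log2 intensities. Differences are log2 differences between group means, with their standard error (SE) and the Benjamini-Hochberg adjusted p of a limma fit over all probes and all 9 arrays. A probe was called higher or lower at an adjusted p under 0.05. The fit takes 1 spread per probe for all 3 groups, although the spread often differed between groups. On many named probes the IMQ arrays lay closer together than the Mock arrays. The first Cd74 probe had a standard deviation of 0.27 in Mock, 0.04 in IMQ and 0.06 in Vanillin. Cd86 had 0.03, 0.04 and 0.12, so the widest group was not always Mock. Where 3 differences are given together, their order is IMQ against Mock, then Vanillin against IMQ, then Vanillin against Mock. Probe brightness differs with the probe's sequence, so no level is set against that of another probe.

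MHC class II molecules are heterodimers of an alpha and a beta chain that display peptides from endocytosed proteins to CD4+ T cells. The invariant chain, CD74, assembles with new class II dimers, blocks their groove and takes them to endosomes, where cathepsins degrade it and the DM molecule exchanges its last fragment for peptide. CIITA is the coactivator that sets class II transcription, and it works through proteins bound to the X and Y boxes of the promoters. A T cell that recognises the complex also reads costimulation: CD80 and CD86 bind CD28 and CTLA-4, CD40 receives CD40 ligand from T cells, and CD83 marks mature dendritic cells and stabilises class II and CD86 at the surface. In skin these genes are carried mainly by Langerhans cells, dermal dendritic cells and macrophages.

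The promoters of the class II chain genes show the elements this regulation uses, and 4 of the 10 members had an entry in the RefSeq promoter table (GRCm38.p6). Below are 100 bases of the H2-Aa promoter, the only class II chain gene measured without doubt, and of H2-Eb1, shown for comparison although it has no expression value here. Both are written 5′ to 3′ on the gene's own strand, and the capitals mark the X-type box CTNGCAAC and the Y box CTGATTGG, letters that were chosen after the promoters had been read and were searched on both strands.
H2-Aa, chr17:34287844-34287943, minus strand: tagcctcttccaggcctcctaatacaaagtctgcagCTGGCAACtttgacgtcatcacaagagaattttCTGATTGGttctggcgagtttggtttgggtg
H2-Eb1, chr17:34305747-34305846, plus strand: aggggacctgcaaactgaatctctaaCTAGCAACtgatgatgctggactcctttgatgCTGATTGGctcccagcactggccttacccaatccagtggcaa
In H2-Aa the X box began 84 bases and the Y box 51 bases before the annotated start, and in H2-Eb1 they began 94 and 62 bases before it. The distance between the boxes was 33 and 32 bases. Of 32851 mouse promoters in the table, 3.42% held the X letters, 4.1% the Y letters and 0.18% both. Each ran from 250 bases before to 50 bases after the start. The windows of Cd80 and H2-DMa held neither run of letters, and boxes spelled with other letters were not searched. The table is of the C57BL/6J reference, and BALB/c mice carry another haplotype of this locus.

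H2-Aa, which encodes the alpha chain of the class II molecule I-A, was higher in imiquimod-treated skin than in mock skin and lower with vanillin than with imiquimod alone. It was among the brightest probes of the array, at percentile 98.5. Its log2 values were 15.41, 15.25 and 15.21 in the Mock arrays, 15.87, 15.83 and 15.72 in the IMQ arrays, and 15.53, 15.51 and 15.48 in the Vanillin arrays. The 3 groups did not overlap, and the Vanillin arrays lay between the other groups. H2-Aa rose by 0.52 ± 0.09 (SE) with imiquimod, a 1.43-fold difference (limma, adjusted p = 0.00112). With vanillin it was lower than with imiquimod alone, at -0.30 ± 0.09 (SE, limma adjusted p = 0.0235), which is 1.23-fold less. That call was lost without IMQ array 1 (adjusted p = 0.0978), IMQ array 2 (0.0709), Vanillin array 1 (0.0513) or Vanillin array 2 (0.057). Between Vanillin and Mock, the difference of 0.22 ± 0.09 was not called (limma, adjusted p = 0.103), and it was called higher without Mock array 1 (0.0318), with an intensity trend and robust prior (0.0466) and with array weights (0.26, 0.0273).

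The probe annotated H2AB1, whose gene is in doubt, read 11.95, 12.20 and 12.17 in Mock, 12.63, 12.58 and 12.54 in IMQ, and 11.85, 11.97 and 12.04 in Vanillin. The IMQ arrays were above all 6 others, and the Mock and Vanillin arrays overlapped. The difference was 0.48 ± 0.10 (SE) between IMQ and Mock (limma, adjusted p = 0.0032), -0.63 ± 0.10 between Vanillin and IMQ (0.00235), and -0.15 ± 0.10 between Vanillin and Mock (0.293). That last difference was -0.23 without Mock array 1 (limma, adjusted p = 0.0764), and -0.27 with array weights, where it was called lower (0.0247).

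**Figure D1:**
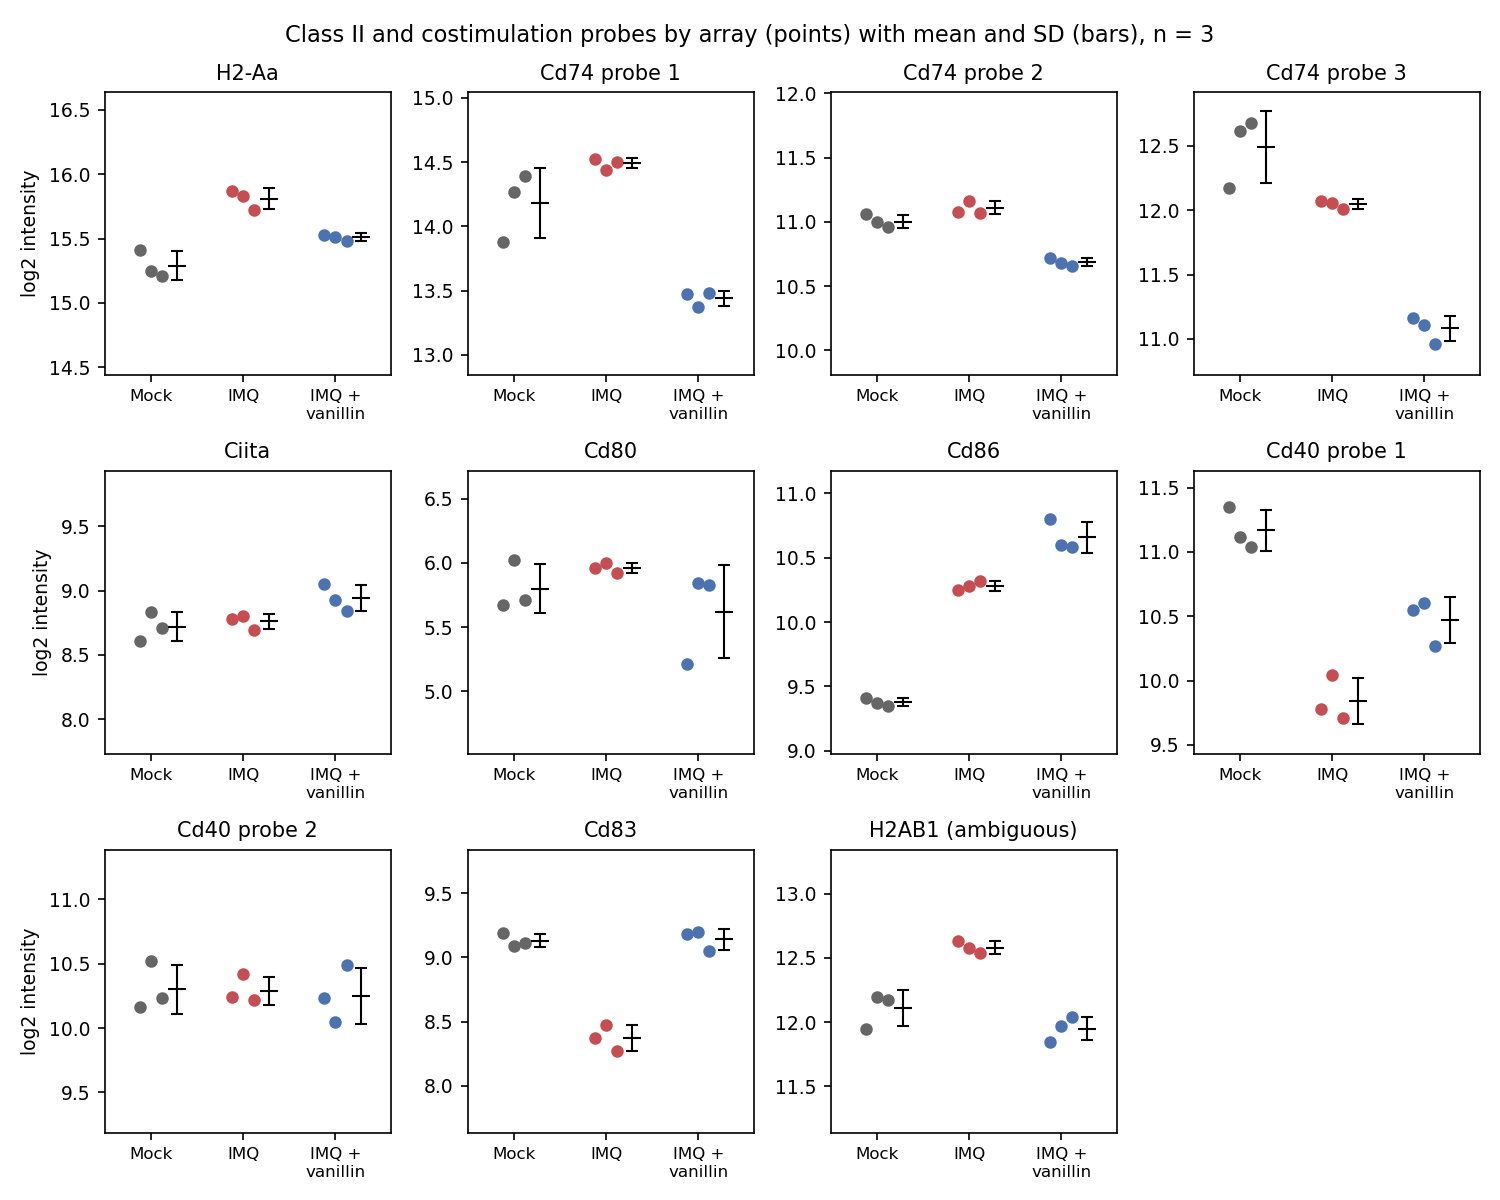
Log2 intensity of each member probe on each of the 9 arrays, coloured by group (Mock, IMQ, Vanillin), with a bar at each group mean; every panel has its own log2 axis. The IMQ arrays are above the Mock arrays for H2-Aa and Cd86 and below them for Cd83 and for the first Cd40 probe.

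Cd74, the invariant chain gene, was lower with vanillin than in either other group on all 3 of its probes, while its difference between imiquimod and mock skin depended on the probe. The first and brightest probe (mMC024080, percentile 94.0) read 13.88, 14.27 and 14.39 in Mock, 14.52, 14.44 and 14.50 in IMQ, and 13.47, 13.37 and 13.48 in Vanillin. On this probe the 3 Vanillin arrays were the lowest of the 9, and the Mock arrays spread more widely than the others, with Mock array 1 lowest.
The second probe (PH_mM_0012569, percentile 68.1) read 11.06, 11.00 and 10.96 in Mock, 11.08, 11.16 and 11.07 in IMQ, and 10.72, 10.68 and 10.66 in Vanillin. The third probe (PH_mM_0016294, percentile 77.6) read 12.17, 12.62 and 12.68 in Mock, 12.07, 12.06 and 12.01 in IMQ, and 11.16, 11.11 and 10.96 in Vanillin. On both probes the Vanillin arrays lay below all others, but the IMQ arrays were the highest on the second and in the middle on the third.

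Against imiquimod alone, Cd74 was lower with vanillin by 1.04 ± 0.13 (SE), 0.42 ± 0.08 and 0.97 ± 0.14 log2 units on the first, the second and the third probe, or 2.06-fold, 1.34-fold and 1.96-fold. The adjusted p-values (limma) were 0.00127, 0.00407 and 0.00174, and the call held in every fit with 1 array left out. On the first and the third probe, these differences lay at percentiles 3.5 and 4.1 of all probes, counted from the most negative. Against mock skin, Cd74 with vanillin was lower by 0.74 ± 0.13, 0.32 ± 0.08 and 1.41 ± 0.14 (SE), or 1.67-fold, 1.25-fold and 2.66-fold (limma, adjusted p = 0.00308, 0.0144 and 0.000116). The second probe's call was lost when only the Vanillin and Mock arrays were fitted (0.0764).

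Between imiquimod and mock skin, the first Cd74 probe differed by 0.30 ± 0.13 (SE), the second by 0.10 ± 0.08 and the third by -0.44 ± 0.14. Only the third probe passed the test (limma, adjusted p = 0.0217), as lower, and the first and second did not (0.0748 and 0.292). The calls of the third and the first probe depended on single arrays and, for the first, on the fit. The third probe's call was lost without Mock array 2 (0.0727), Mock array 3 (0.0729), IMQ array 1 (0.0541), IMQ array 2 (0.0513) or IMQ array 3 (0.0684). The third probe's difference was -0.60, -0.38 and -0.35 without Mock array 1, 2 or 3. It moved little without IMQ array 1, 2 or 3, at -0.46, -0.45 and -0.42. The first probe's difference was 0.15 without Mock array 1 (0.142) and 0.41 without Mock array 3, where it was called higher (0.0297). It was also called higher with an intensity trend and robust prior (0.30, limma adjusted p = 0.048) and with array weights (0.24, 0.00434).

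The disagreement between the first and the third Cd74 probe was also measured within arrays. The first probe read 2.38 to 2.49 log2 units above the third in the IMQ arrays, and 1.65 to 1.71 above it in the Mock arrays. The changes of the probes between these groups thus differed by 0.75, with an exact two-sided permutation p of 0.1, the smallest that 3 arrays against 3 can give. Between Vanillin and IMQ the changes of these probes differed by -0.07 (exact permutation p = 0.5). The second probe changed less than the first in that comparison, by a difference of -0.63 (exact permutation p = 0.1). Where each probe lies on the Cd74 transcripts is not given in the sources used here, so whether the probes read different isoforms was not tested.

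**Figure D2:**
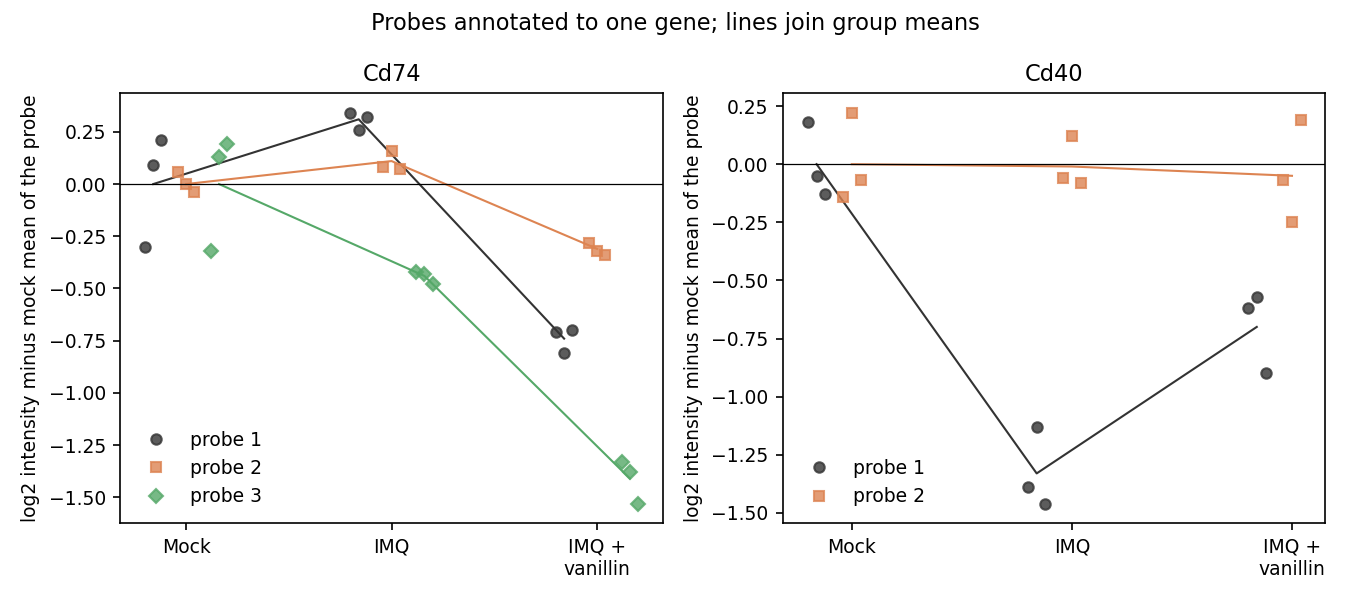
Log2 intensity of the 3 Cd74 probes and the 2 Cd40 probes on each array, relative to that probe's Mock mean. All 3 Cd74 probes are below 0 in every Vanillin array, whereas in the IMQ arrays the third is below 0 and the first above; the first Cd40 probe falls with IMQ and the second does not.

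Ciita, the class II transactivator gene, passed the test in none of the 3 comparisons. It read 8.61, 8.83 and 8.71 in Mock, 8.78, 8.80 and 8.69 in IMQ, and 9.05, 8.93 and 8.84 in Vanillin, so the Vanillin arrays were the 3 highest by a small margin. The differences were 0.04, 0.18 and 0.22, each ± 0.09 (SE; limma, adjusted p = 0.742, 0.149 and 0.12). With weights estimated for each array, Vanillin against IMQ was called higher (0.21, adjusted p = 0.0246).

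Cd86, the costimulatory ligand of CD28 that is present on resting and activated antigen-presenting cells, was higher in imiquimod skin and higher again with vanillin. It read 9.41, 9.37 and 9.35 in Mock, 10.25, 10.28 and 10.32 in IMQ, and 10.80, 10.60 and 10.58 in Vanillin. The groups were fully separated in that order, and the replicates of each lay close together. The rise was 0.90 ± 0.09 (SE) with imiquimod, or 1.87-fold (limma, adjusted p = 6.15e-05), and a further 0.38 ± 0.09 with vanillin, or 1.3-fold (0.00972). Vanillin against Mock gave 1.28 ± 0.09 (SE), or 2.43-fold (limma, adjusted p = 1.77e-05), at percentile 98.6 of all probes. These calls held in every fit with 1 array left out.

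Cd80, the other ligand of CD28, was dim, at percentile 7.3 of probes, and no difference passed the test. Its linear intensities were 51, 64.9 and 52.4 in Mock, 62.2, 63.9 and 60.4 in IMQ, and 37, 57.1 and 56.8 in Vanillin. The lowest value came from Vanillin array 1, and the other arrays lay between 51 and 64.9. The log2 differences were 0.16, -0.33 and -0.18, each ± 0.17 (SE; limma, adjusted p = 0.477, 0.154 and 0.5). This was the widest SE among the members.

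Cd40, the receptor through which T cells license antigen-presenting cells, changed on 1 of its 2 probes. The first probe (PH_mM_0001521) read 11.35, 11.12 and 11.04 in Mock, 9.78, 10.04 and 9.71 in IMQ, and 10.55, 10.60 and 10.27 in Vanillin. Here the 3 groups were separated, with IMQ lowest and Vanillin between. It fell by 1.33 ± 0.14 (SE) with imiquimod, or 2.51-fold (limma, adjusted p = 8.36e-05). It was higher with vanillin than with imiquimod alone by 0.63 ± 0.14 (SE), or 1.54-fold (limma, adjusted p = 0.00768), and lower than in Mock, at -0.70 ± 0.14 (0.00527). All 3 calls held with any 1 array left out.

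The second Cd40 probe (PH_mM_0007329) read 10.16, 10.52 and 10.23 in Mock, 10.24, 10.42 and 10.22 in IMQ, and 10.23, 10.05 and 10.49 in Vanillin. The groups overlapped throughout. Its differences were -0.01, -0.04 and -0.05, each ± 0.14 (SE; limma, adjusted p = 0.97, 0.841 and 0.839). Within arrays, the first probe was 0.60 to 1.19 log2 units above the second in Mock and 0.38 to 0.51 below it in IMQ, so their changes differed by -1.32 (exact two-sided permutation p = 0.1, the smallest possible). The probes were of like brightness, at percentiles 63.4 and 61.1. Any direction for Cd40 therefore rests on the first probe alone.

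Cd83, a marker of mature dendritic cells, was lower with imiquimod alone than in both other groups. It read 9.19, 9.09 and 9.11 in Mock, 8.37, 8.47 and 8.27 in IMQ, and 9.18, 9.20 and 9.05 in Vanillin. All IMQ arrays lay below all others, and Mock and Vanillin overlapped. Cd83 fell by 0.76 ± 0.09 (SE) with imiquimod, or 1.69-fold (limma, adjusted p = 0.000158), and was higher by 0.77 ± 0.09 with vanillin than with imiquimod alone, or 1.71-fold (0.000969). Vanillin against Mock gave 0.01 ± 0.09 (SE, limma adjusted p = 0.929).

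**Figure D3:**
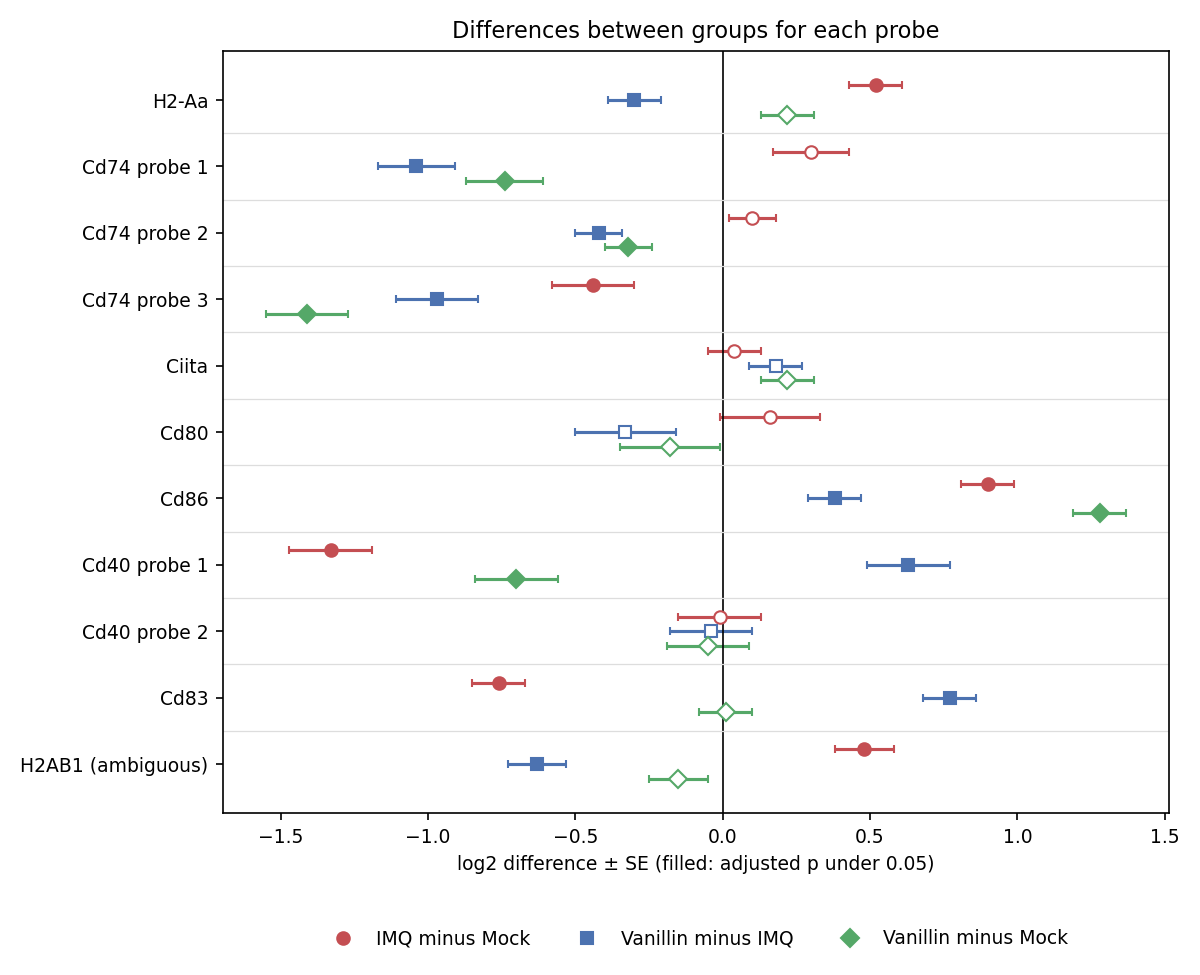
Log2 difference of each member probe in the 3 comparisons, with bars of ± 1 standard error and filled markers for probes called at an adjusted p under 0.05. Cd86 is above 0 in all 3 comparisons, the Cd74 probes are below 0 in both comparisons with Vanillin, and Cd83 and the first Cd40 probe are below 0 for IMQ against Mock and above 0 for Vanillin against IMQ.

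Counted over the 10 member probes, 5 were called between IMQ and Mock, where 53.6% of all probes were called. H2-Aa and Cd86 were the 2 called higher, where 24% of all probes were, and the third Cd74 probe, the first Cd40 probe and Cd83 were the 3 called lower, where 29.6% were. Between Vanillin and IMQ, 7 were called against 41.2% of all probes, 3 of them higher (24.3% of all) and 4 lower (17% of all): Cd86, Cd83 and the first Cd40 probe were higher, and H2-Aa and the 3 Cd74 probes lower. Between Vanillin and Mock, 5 were called against 26.7% of all probes, with Cd86 higher (11.9% of all) and the 3 Cd74 probes and the first Cd40 probe lower (14.7% of all).
The share for IMQ against Mock is close to the background. The others are above it, but 3 of the 4 probes lower in each comparison with Vanillin belong to 1 gene. By gene, taking the brightest probe, 4, 5 and 3 of the 7 measured genes were called in the 3 comparisons. The arrays of the compared groups did not overlap for 7, 9 and 7 member probes, against 68%, 58.5% and 37.8% of all probes. The median difference over the members was 0.07, -0.17 and -0.11, against -0.04, 0.03 and 0.01 over all probes. The comparisons share arrays, so their values are not independent of each other.

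Across the 9 arrays, Pearson's r was 0.90 between the first and the second Cd74 probe, 0.83 between the first and the third, and 0.80 between the second and the third. Between H2-Aa and the first, the second and the third Cd74 probe it was 0.28, 0.34 and -0.24. It was -0.06 between the Cd40 probes, and 0.84 between the first Cd40 probe and Cd83. These are descriptions over arrays that fall into 3 treatment groups. The genes most like the mean standardised profile of H2-Aa and the first, brightest Cd74 probe were Hspb8 and Tnr (r = 0.978 each), Sap30bp (0.975), Kctd2 (0.966), Pigl (0.965) and Tet3 (0.963), among 11129 candidate probes. They were highest in the IMQ arrays, as Hspb8 shows with 15.73 to 15.87 in IMQ, 14.44 to 14.62 in Mock and 13.97 to 14.37 in Vanillin.

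The other genes of the class II pathway moved in both directions. The annotation writes symbols without hyphens, and none of the listed H2 genes, such as H2-DMb1 and H2-Oa, was matched to a probe. Whether they have a probe under another spelling was not tested. Of 22 listed, 11 were measured. Between IMQ and Mock, 4 were higher (24% of all probes), 4 lower (29.6%) and 3 not called, with a median difference of -0.10. Between Vanillin and IMQ, 3 were higher (24.3% of all probes), 3 lower (17%) and 5 not called (median -0.04). These 6 calls fell to 2 without IMQ array 1, 3 without IMQ array 3 and 3 without Vanillin array 1. Between Vanillin and Mock, 3 were higher (11.9% of all probes), 3 lower (14.7%) and 5 not called (median 0.07).

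All 4 genes higher with imiquimod, on their brightest probe, were cathepsins, the endosomal proteases of this pathway. Ctss, the main invariant chain protease of dendritic cells and B cells, read 11.86, 11.70 and 11.84 in Mock, 12.83, 12.84 and 12.81 in IMQ, and 12.49, 12.71 and 12.47 in Vanillin. The groups did not overlap, and Vanillin lay nearer to IMQ than to Mock. Ctss rose by 1.02 ± 0.09 (SE) with imiquimod (limma, adjusted p = 4.63e-05), and was 0.75 ± 0.09 above Mock with vanillin (0.000464). Its lower level with vanillin than with imiquimod alone, -0.27 ± 0.09, was called at 0.0447 with all arrays but in only 2 of the 9 fits with 1 array left out, those without Mock array 1 or Vanillin array 2.

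Ctsd, an aspartic protease of endosomes and lysosomes, rose by 0.56 ± 0.08 (SE) with imiquimod (limma, adjusted p = 0.000365) and was 0.45 ± 0.08 above Mock with vanillin (0.00264). Ctsl, which degrades the invariant chain in thymic epithelium, rose by 0.60 ± 0.12 with imiquimod (limma, adjusted p = 0.00355), and its dimmer probe gave 0.47 ± 0.22, which was not called (0.1). Ctsb had probes that went opposite ways. Its brightest probe was 1.07 ± 0.17 higher in IMQ than in Mock (limma, adjusted p = 0.000814) and 1.0 ± 0.17 lower in Vanillin than in IMQ (0.00311), while its other probe differed by -0.81 ± 0.11 (0.000282) and 0.44 ± 0.11 (0.0111). No direction is given for Ctsb. Ctsz, a cathepsin with carboxypeptidase activity, went the other way from Ctss and Ctsd and fell by 0.57 ± 0.10 (SE) with imiquimod (limma, adjusted p = 0.00157).

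Lgmn, the asparaginyl endopeptidase that starts invariant chain cleavage in some cells, was the pathway gene with the lowest difference. It read 14.84, 14.41 and 14.26 in Mock, 12.72, 12.79 and 12.77 in IMQ, and 13.45, 13.45 and 13.18 in Vanillin. The groups were separated, with IMQ lowest. Lgmn fell by 1.74 ± 0.15 (SE) with imiquimod (limma, adjusted p = 3.78e-05) and with vanillin it was 1.14 ± 0.15 below Mock (0.000696) and 0.60 ± 0.15 above IMQ (0.0146). That last call was lost without IMQ array 1 (0.0514).
Ifi30, the lysosomal thiol reductase GILT that unfolds disulphide-linked antigens, read 14.60, 14.62 and 14.45 in Mock, 14.74, 14.80 and 14.73 in IMQ, and 15.28, 15.04 and 15.02 in Vanillin. It was highest in the Vanillin arrays, with no overlap. Its difference was 0.56 ± 0.10 (SE) against Mock (limma, adjusted p = 0.00312) and 0.36 ± 0.10 against IMQ (0.0194), the latter not called without IMQ array 1, IMQ array 3 or Vanillin array 1 (at most 0.0698).

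Of the factors that bind the X box with CIITA, Rfxap was lower with imiquimod, Rfx5 was not called, and Rfxank had probes that disagreed. Rfxap read 8.61, 8.73 and 8.71 in Mock, 7.77, 7.87 and 7.83 in IMQ, and 7.75, 7.89 and 7.71 in Vanillin. Both imiquimod-treated groups lay below Mock and overlapped each other. The fall was 0.86 ± 0.08 (SE) for IMQ against Mock (limma, adjusted p = 6.88e-05) and 0.90 ± 0.08 for Vanillin against Mock (0.000108), with -0.04 between Vanillin and IMQ (0.743). Rfx5 differed by -0.10, -0.17 and -0.27 (limma, adjusted p = 0.399, 0.165 and 0.0621). The brightest Rfxank probe differed by -0.37 ± 0.12 between IMQ and Mock (limma, adjusted p = 0.0247) and its other probe by 0.42 ± 0.13 (0.0249), so no direction is given. Creb1, which binds beside the X box, was called in no comparison (-0.37, 0.29 and -0.08; limma, adjusted p = 0.0988, 0.197 and 0.783).

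**Figure D4:**
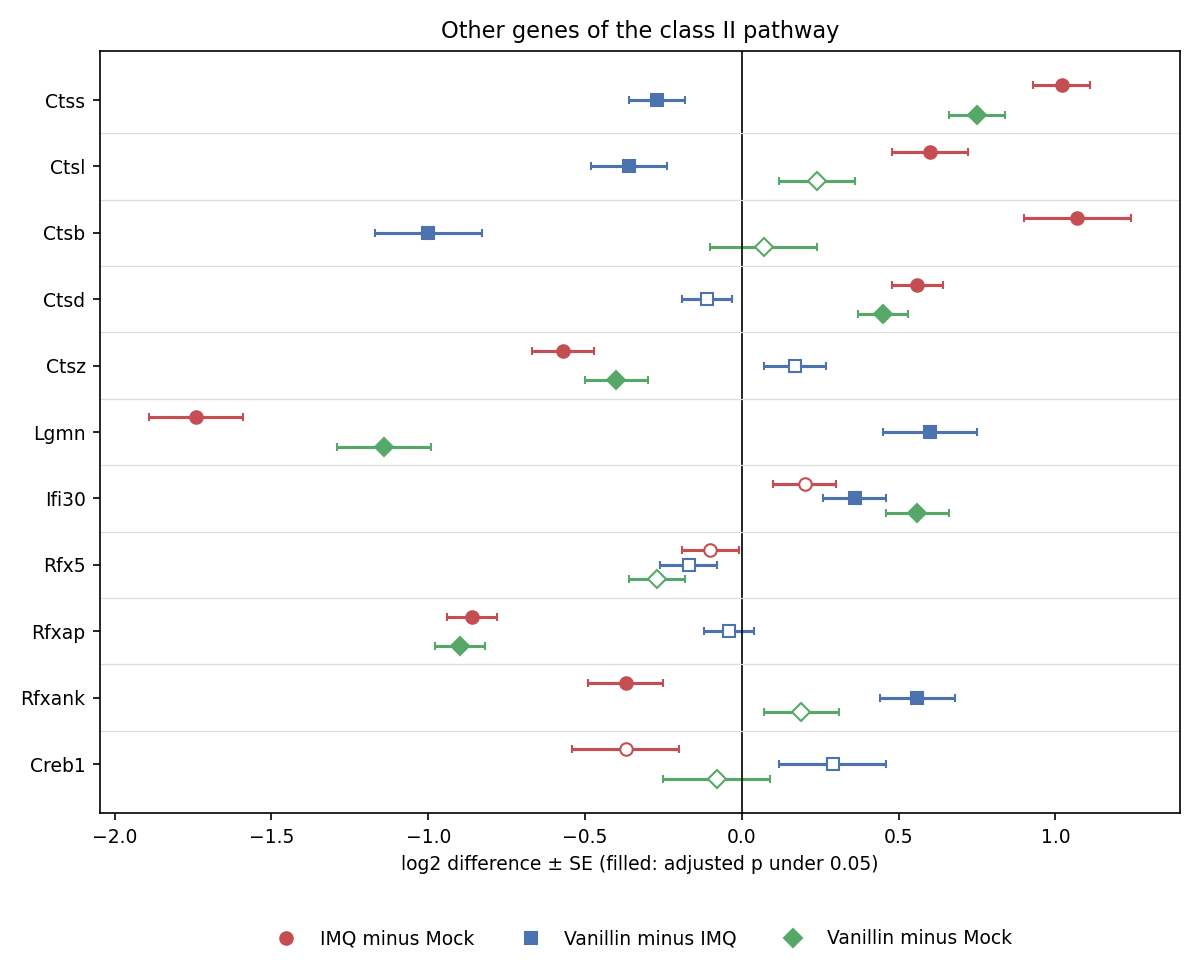
Log2 difference of the brightest probe of each measured class II pathway gene in the 3 comparisons, with bars of ± 1 standard error and filled markers for calls at an adjusted p under 0.05. For IMQ against Mock, Ctss, Ctsb, Ctsd and Ctsl lie above 0 and Lgmn, Rfxap, Ctsz and Rfxank below; second probes of Ctsb and Rfxank, which are not drawn, went the opposite way.

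On the T cell side, 12 of 13 listed costimulation receptors were measured. Between IMQ and Mock, 4 were higher (24% of all probes), 2 lower (29.6%) and 6 not called. Between Vanillin and IMQ, 2 were higher (24.3% of all probes), 3 lower (17%) and 7 not called. These 5 calls fell to between 1 and 3 without Mock array 2, any IMQ array, Vanillin array 1 or Vanillin array 2. The partners of the members are named for that role, with their values already seen. Cd28, the receptor of CD80 and CD86, read 6.43, 7.00 and 6.76 in Mock, 8.17, 8.33 and 8.29 in IMQ, and 7.09, 6.86 and 7.48 in Vanillin. This probe was dim, at percentile 25.8 of probes, and its IMQ arrays stood above all others. Cd28 rose by 1.53 ± 0.18 (SE) with imiquimod (limma, adjusted p = 0.000189) and was lower with vanillin than with imiquimod alone, at -1.12 ± 0.18 (0.00284), whereas its ligand Cd86 was higher there.
Cd40lg, the ligand of CD40, read 9.84, 9.89 and 9.79 in Mock, 10.46, 10.39 and 10.24 in IMQ, and 10.09, 9.88 and 10.17 in Vanillin. It was highest in the IMQ arrays. The rise with imiquimod was 0.52 ± 0.10 (SE, limma adjusted p = 0.00275). Its difference of -0.32 ± 0.10 between Vanillin and IMQ (0.0371) was not called without Mock array 2, IMQ array 1, IMQ array 2, Vanillin array 1 or Vanillin array 2 (at most 0.138). Tnfrsf18 and Tnfrsf4, the others of the list's 3 brightest, went the other way with imiquimod, at -0.52 ± 0.09 and -0.60 ± 0.12 (SE; limma, adjusted p = 0.00107 and 0.00339). The dimmer Tnfrsf18 probe gave 0.05 ± 0.14 there and was not called (0.795). Vanillin against IMQ gave -0.02 for Tnfrsf18 (0.845) and 0.38 for Tnfrsf4 (0.037), the latter called in 3 of the 9 fits with 1 array left out.

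All 15 other listed costimulation and checkpoint ligands were measured. Between IMQ and Mock, 1 was higher (24% of all probes), 5 lower (29.6%) and 9 not called. With vanillin against imiquimod alone, 6 were higher (24.3% of all probes), 2 lower (17%) and 7 not called. These 8 calls fell to 2 without IMQ array 1 or IMQ array 3. They fell to 4 without Vanillin array 2, and to 5 without IMQ array 2 or Vanillin array 1. Icam1, the adhesion ligand of LFA-1, was lower by 0.57 ± 0.14 (SE) with imiquimod (limma, adjusted p = 0.00848) and higher by 0.75 ± 0.14 with vanillin than with imiquimod alone (0.00474), the signs seen for Cd83. The others of the 3 brightest ligands, Pdcd1lg2 and Pvr, did not show both signs. Pdcd1lg2 differed by 0.03 between IMQ and Mock and by 0.34 between Vanillin and IMQ (limma, adjusted p = 0.826 and 0.0304). The latter call was lost without any 1 IMQ array or Vanillin array 2 (at most 0.0958). Pvr differed by 0.01 and -0.41 and was not called (0.988 and 0.546).
Interferon-gamma is the main inducer of Ciita. Of 10 measured genes of its signalling, 2 were higher (24% of all probes), 3 lower (29.6%) and 5 not called between IMQ and Mock. Between Vanillin and IMQ, 5 were higher (24.3% of all probes), 2 lower (17%) and 3 not called. The 7 calls of the latter fell to 2 without IMQ array 1, 3 without IMQ array 2 or IMQ array 3, and 4 without Vanillin array 2. Ifng, which encodes interferon-gamma, was chosen after its values were seen. It differed by -0.43 ± 0.11 (SE) between IMQ and Mock (limma, adjusted p = 0.0111), called in every fit with 1 array left out. The other differences, 0.09 ± 0.11 between Vanillin and IMQ (0.56) and -0.35 ± 0.11 between Vanillin and Mock (0.0539), were not called. Of 12 measured class I pathway genes, 3 were higher (24% of all probes) and 2 lower (29.6%) between IMQ and Mock. The listed heavy chain genes H2-K1, H2-D1, H2-Q4 and H2-T23 were not matched to a probe, so these counts leave them out. B2m, the light chain of class I, was called in no comparison (0.09, -0.18 and -0.08; limma, adjusted p = 0.471, 0.194 and 0.593).

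Markers of the cells that carry these genes also moved with the groups. All 7 leukocyte markers were higher in IMQ than in Mock (median difference 0.83), where 24% of all probes were. In Vanillin against IMQ, 4 of these markers were lower (17% of all probes) and 0 higher (24.3%), with a median of -0.41. Their summed intensity was 27130 to 34843 in Mock, 54451 to 56470 in IMQ and 40556 to 41721 in Vanillin. The groups did not overlap, in the order seen for H2-Aa. Within Mock, array 1 had the lowest leukocyte sum; it was the lowest Mock array on the first and the third Cd74 probe and the highest on the second and on H2-Aa.
Macrophage and monocyte markers differed in direction among themselves. Of 13 measured, 6 were higher (24% of all probes) and 4 lower (29.6%) between IMQ and Mock. The differences ran from -1.33 to 2.03, with a median of 0.09. With vanillin against imiquimod alone, 4 were higher (24.3% of all probes), 2 lower (17%) and 7 not called (median -0.11). These 6 calls fell to 3 without IMQ array 1. Their sum was 69161 to 77900 in Mock, 84577 to 86857 in IMQ and 75754 to 81074 in Vanillin. Among the 3 brightest, the complement genes C1qa and C1qb and the growth factor receptor gene Csf1r, the difference between IMQ and Mock was 0.39 ± 0.09 (SE), 0.09 ± 0.08 and 0.62 ± 0.12 (limma, adjusted p = 0.00548, 0.333 and 0.00274). Adgre1, which encodes the macrophage marker F4/80 and was chosen after its values were seen, had the highest difference of the list, 2.03 ± 0.09 (limma, adjusted p = 1.67e-06), and was not called between Vanillin and IMQ (-0.11 ± 0.09, 0.36).

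Dendritic cell markers did not share one direction. Of 14, 4 were higher (24% of all probes) and 5 lower (29.6%) between IMQ and Mock. These 9 calls fell to 4 without IMQ array 1 or IMQ array 3. Between Vanillin and IMQ, 4 were higher (24.3% of all probes), 3 lower (17%) and 7 not called. These 7 calls fell to 3 without IMQ array 1 or Vanillin array 1. They fell to 4 without IMQ array 2, IMQ array 3 or Vanillin array 2. Their sum was 26072 to 29122 in Mock, 20771 to 21039 in IMQ and 19971 to 22846 in Vanillin. The 3 brightest were Clec10a, a C-type lectin gene, Fscn1, an actin-bundling gene of mature dendritic cells, and Cd1d1, which encodes the lipid-presenting molecule CD1d. Between IMQ and Mock they differed by -0.09 ± 0.08 (SE), -0.45 ± 0.15 and -1.42 ± 0.11 (limma, adjusted p = 0.362, 0.0267 and 2.48e-05), and the Fscn1 call was lost without Mock array 1 or any 1 IMQ array (at most 0.0761). Vanillin against IMQ gave -0.24 ± 0.08, -0.08 ± 0.15 and 0.88 ± 0.11 (limma, adjusted p = 0.0389, 0.682 and 0.00141). The Clec10a call there held in 3 of the 9 fits with 1 array left out, those without Mock array 1, Mock array 3 or Vanillin array 2 (at most 0.115 in the others).
Itgax, which encodes CD11c and was chosen after its values were seen, read 9.22, 8.90 and 8.98 in Mock, 8.65, 8.68 and 8.37 in IMQ, and 9.24, 9.48 and 8.99 in Vanillin. Its lowest values were those of the IMQ arrays. Its difference was -0.46 ± 0.15 (SE) between IMQ and Mock (limma, adjusted p = 0.0296), not called without Mock array 1, Mock array 3, IMQ array 1 or IMQ array 3 (at most 0.111), and 0.67 ± 0.15 between Vanillin and IMQ (0.00933). Other listed markers, also chosen after their values were seen, went the other way. Between IMQ and Mock, Itgae differed by 0.67 ± 0.15 (SE; limma, adjusted p = 0.00583), Ccr7 by 0.25 ± 0.08 (0.0333) and Flt3 by 0.30 ± 0.12 (0.0664, not called). The Ccr7 call was lost without Mock array 1, Mock array 2 or any 1 IMQ array (at most 0.115). Vanillin against IMQ called none of them (0.17, -0.02 and 0.32; limma, adjusted p = 0.384, 0.891 and 0.0633).
Of 6 Langerhans cell markers, 2 were higher (24% of all probes), 2 lower (29.6%) and 2 not called between IMQ and Mock (median -0.09). Between Vanillin and IMQ, 2 were higher (24.3% of all probes), 0 lower (17%) and 4 not called (median 0.11). Cd207, which encodes the Langerhans cell lectin langerin, was chosen after its values were seen. It differed by -0.36 between IMQ and Mock (limma, adjusted p = 0.0748) and by 0.45 between Vanillin and IMQ (0.0443). The latter call held only without Mock array 1, Mock array 3 or Vanillin array 3 (at most 0.132 in the other fits with 1 array left out). The B cell marker Ms4a1 was dim, between 5.44 and 6.12 on all arrays, and the sum of 8 B cell markers was 2304 to 2860 in Mock, 2780 to 3163 in IMQ and 2664 to 4175 in Vanillin.
Of 8 measured T cell markers, 5 were higher (24% of all probes) and 1 lower (29.6%) between IMQ and Mock. Between Vanillin and IMQ, 4 were higher (24.3% of all probes) and 2 lower (17%). Each of these counts of 6 calls fell to 3 without IMQ array 1. Their sum was 12196 to 13119 in Mock, 13167 to 13736 in IMQ and 15172 to 15558 in Vanillin, and most of it came from Cd3e, with intensities of 8958 to 11230. Cd3e differed by 0.27 ± 0.08 between Vanillin and IMQ (SE, limma adjusted p = 0.0208), not called without IMQ array 1, IMQ array 3 or Vanillin array 1 (at most 0.0873). Cd3g, another chain of the CD3 complex, differed the other way, by -0.40 ± 0.11 (0.0163), not called without IMQ array 1, IMQ array 2 or Vanillin array 2 (at most 0.0556).

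The sum of 6 Langerhans cell markers, mostly Epcam and Cd24a, which keratinocytes and other epithelia also express, was 83047 to 87816 in Mock, 145486 to 151307 in IMQ and 136692 to 141676 in Vanillin. The Epcam probe in this sum differed by 0.94 ± 0.08 (SE) between IMQ and Mock (limma, adjusted p = 3.45e-05). Its other probe, at percentile 93.0, differed by 0.09 ± 0.10 and was not called (0.475). The keratinocyte sum was 1044190 to 1062360 in Mock, 1299054 to 1341855 in IMQ and 1294344 to 1381759 in Vanillin. The skeletal muscle sum was 420184 to 459014, 336184 to 343387 and 431594 to 449601, and the adipocyte sum 301559 to 324324, 207105 to 210750 and 227877 to 238438, in the same order. Both were lowest with imiquimod, the group in which Cd83 and the first Cd40 probe were also lowest. No listed marker was at or below 0 on any array. The part of these cell types in the results on H2-Aa, Cd74, Cd86, Cd83 and Cd40 was not tested.

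**Figure D5:**
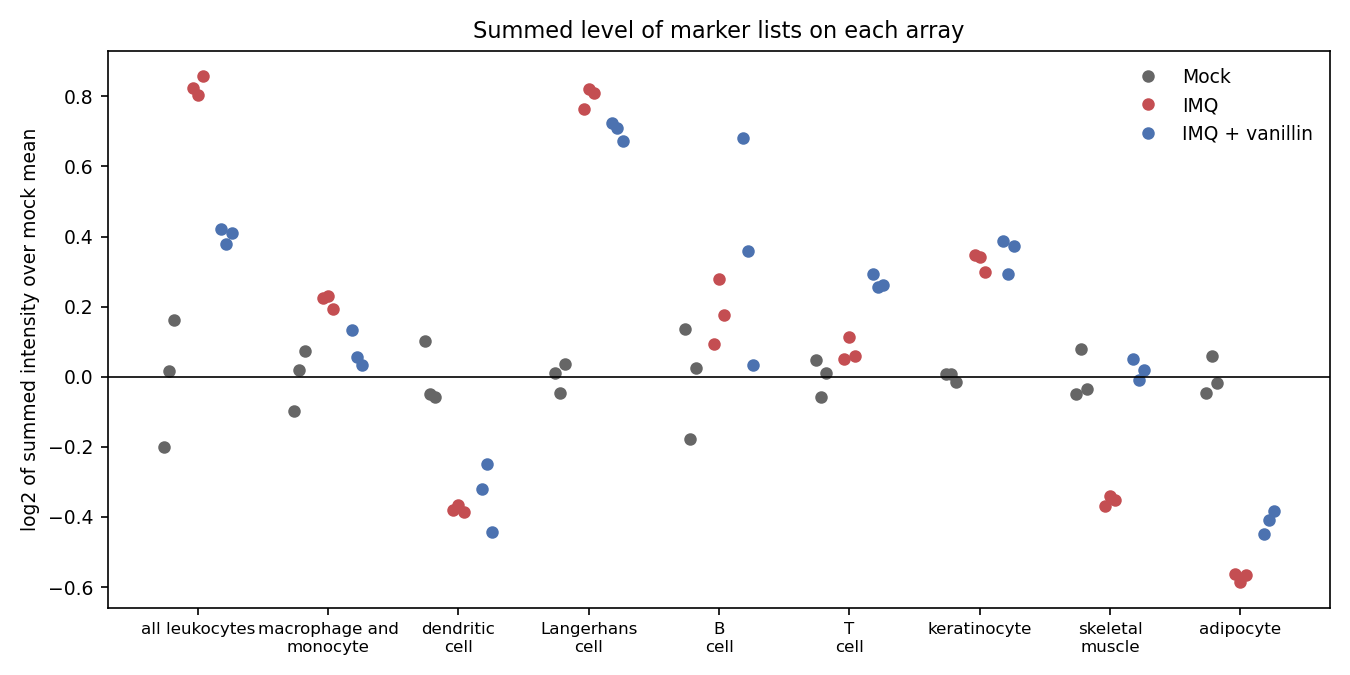
Summed intensity of each cell type marker list on each array, as log2 of its ratio to the Mock mean, coloured by group. The leukocyte sum is highest in the IMQ arrays, between in Vanillin and lowest in Mock, while the muscle and adipocyte sums are lowest in the IMQ arrays.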

How the data were processed

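The authors deposited linear Cy5 intensities of 26423 probes on 9 arrays, already equalised between arrays: above an intensity of 100, sorted values differed by at most 3.4547% between arrays. Per the submitters' processing notes, limma was used; the sources used here name no scanner, background correction or filter. Genes were named from the platform's annotation through RefSeq symbols (18212 probes by current symbol, 2126 by an older synonym, 39 as given; 6046 unnamed).

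The deposited intensities, with values below 1 set to 1, were converted to log2 and fitted with limma 3.58.1 in R 4.3.3 (group means, eBayes, all 9 arrays, Benjamini-Hochberg over all probes, no replicate block). The script was tested on simulated data. Probes of 1 gene were compared by exact permutation over arrays. The members and lists were chosen with earlier results of these data known. All member probes and class II pathway genes are named; for other lists the rule allows naming the 3 brightest genes, and not all of these are printed. Cd28, Adgre1, Itgax, Itgae, Ccr7, Flt3, Cd207, Ms4a1 and Ifng fall outside it and were chosen after their values were seen. Of genes with several probes the brightest stands for the gene. Alternatives changed the scaling, low-value filter, offset, variance prior, array weights, arrays fitted, threshold and replicates. Arrays carry no read depth, so 3 arrays per group limit the precision.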

Additional observations from a re-analysis of the deposited data

How the results depend on the processing

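Of 591 values recomputed under another setting, 554 kept their direction and their side of the threshold. The member probe counts stayed within 1.5 times of those reported, at 4 to 7 for IMQ against Mock, 6 to 9 for Vanillin against IMQ and 4 to 6 for Vanillin against Mock. Counts over all probes and over 140 listed genes moved more, and the cause was not tested. With 1 array left out, Vanillin against IMQ gave 6576 to 12805 called probes (10898 with all arrays) and 35 to 80 listed genes (74). At an adjusted p under 0.01 it gave 5457 and 33, and Vanillin against Mock gave 4231 and 35 (7045 and 58). Fitting only the arrays of Vanillin and Mock gave 38 listed genes. Weights estimated for each array raised the called probes of IMQ against Mock to 19830, from 14157 without weights. Signs turned only among values that were not called. With array weights, IMQ against Mock became -0.03 for Ciita and -0.005 for Cd80. With 1 array left out, it ranged from -0.01 to 0.10 for Ciita and from -0.08 to 0.10 for the second Cd40 probe, whose other differences ranged from -0.16 to 0.06. Vanillin against Mock ranged from -0.01 to 0.06 for Cd83 and from -0.28 to 0.03 for Cd80. With array weights the second Cd40 probe was called for IMQ against Mock (-0.21, limma adjusted p = 0.0357), as was Cd80 for Vanillin against IMQ (-0.44, 0.0234). Deviations of arrays with the same replicate number correlated between -0.2652 and 0.2218, and those with different numbers between -0.1801 and 0.2613. With 3 arrays per group, these values cannot show whether the number marks something shared. A fit with the replicate number as a block called 5, 7 and 5 member probes and 13609, 9968 and 6224 of all probes in the 3 comparisons. Signal limits Cd80 most, the dimmest member probe, with the widest SE. The counts of single gene lists with 1 array left out were added after seeing the data.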
